A study of Mus musculus with 20 samples.

Results

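Cytosolic sulfotransferases were measured in the livers of Scd1 knockout and wild-type mice. The 9 member genes were Sult3a1, Sult2a8, Sult2b1, Sult1e1, Sult1a1, Sult1b1, Sult1c2, Sult1d1 and Sult5a1, out of 18193 genes that a probe set naming a single gene represented on an Affymetrix whole-genome mouse array. The 9 are part of the family, and 4 other sulfotransferase genes on the array, Sult1c1, Sult2a2, Sult4a1 and Sult6b1, were not members. Members were picked among genes of the family name, with earlier results of the same arrays known. Sult3a1, Sult2a8 and Sult1e1 had been listed there among the largest differences between knockout and wild type on the very-low-fat diet. Every contrast that contains the knockout arrays on that diet is therefore given for these 3 genes as a description, without a test. The wild-type arrays on that diet entered the same choice, so tests of these 3 genes that use them are not independent of it. Each gene is represented by the probe set with the highest mean log2 value over all 20 arrays, a choice that matters for Sult1d1 alone, the only member with several probe sets.

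The study crossed 2 genotypes with 2 diets, with 5 individual livers and 5 arrays in each of 4 groups: Scd1 knockout on the very-low-fat (VLF), high-carbohydrate diet, wild type on the VLF diet, Scd1 knockout on chow and wild type on chow. Scd1 encodes the desaturase that makes monounsaturated fatty acids in liver. The labels name no further allele, and no source used here gives the age, sex, strain background, feeding time or days on diet. Whole livers were measured, so fewer cells of a type and less RNA per cell cannot be told apart.

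The genotype labels were matched by Scd1 itself, with deposited intensities of 25.9 to 37.4 in knockout VLF livers, 17719 to 20108 in wild-type VLF livers, 27.2 to 57.4 in knockout chow livers and 6522 to 10555 in wild-type chow livers. Scd1 does not check the diet labels of the knockout, and no source used here says whether its probe set falls within the deletion. Array medians were 32.2 to 36.6. The summed scaled intensity of 8 hepatocyte markers overlapped between the groups, at 94277 to 101343 in knockout VLF livers, 95505 to 99130 in wild-type VLF livers, 97718 to 107826 in knockout chow livers and 91175 to 98536 in wild-type chow livers. Of the single markers, Apob, Asgr1 and Hnf4a were nevertheless lower in knockout than in wild-type VLF livers in the tests given below. The ratio of the 3′ to the 5′ actin probe set, a sign of RNA integrity, averaged 1.82, 2.19, 2.25 and 2.70 in the same order of groups. Its range was 1.69 to 1.96 in knockout VLF livers and 2.10 to 2.37 in knockout chow livers, without overlap. Wild-type chow livers, at 2.49 to 3.07, lay above all other livers. The part of RNA integrity in the results below was not tested.

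Cytosolic sulfotransferases move a sulfonate group from the donor PAPS (3′-phosphoadenosine 5′-phosphosulfate) onto hydroxyl or amine groups of small molecules, which makes them more soluble and mostly inactive. SULT1 enzymes act mainly on phenols, estrogens, thyroid hormones and catecholamines, and SULT2 enzymes on hydroxysteroids, sterols and bile acids. The liver is a main site of these reactions, and several of the genes are known in mice to follow sex, growth hormone and nuclear receptors.

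The 3 members with the widest range over the groups were Sult3a1, Sult2a8 and Sult1e1, and their promoter windows are shown so that the motif matches can be read in place. Each window holds 250 bases before and 50 after the annotated start, from RefSeq on GRCm38.p6, written 5′ to 3′ on the coding strand, with motif matches in capitals. The Sult3a1 window lies at chr10:33857472-33857771 on the plus strand, the Sult2a8 window at chr7:14446538-14446837 on the minus strand, and the Sult1e1 window at chr5:87591562-87591861 on the minus strand.
Sult3a1: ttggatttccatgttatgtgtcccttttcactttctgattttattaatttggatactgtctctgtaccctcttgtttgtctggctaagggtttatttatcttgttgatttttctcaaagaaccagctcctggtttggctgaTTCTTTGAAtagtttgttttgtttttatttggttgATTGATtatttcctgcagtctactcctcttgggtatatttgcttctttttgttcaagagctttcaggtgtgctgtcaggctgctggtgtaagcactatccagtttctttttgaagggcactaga
Sult2a8: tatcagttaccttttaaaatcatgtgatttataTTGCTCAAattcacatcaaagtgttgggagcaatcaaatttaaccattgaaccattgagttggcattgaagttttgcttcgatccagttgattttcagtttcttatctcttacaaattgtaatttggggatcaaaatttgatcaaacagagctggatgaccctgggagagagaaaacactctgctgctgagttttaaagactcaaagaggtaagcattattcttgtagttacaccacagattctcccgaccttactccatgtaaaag
Sult1e1: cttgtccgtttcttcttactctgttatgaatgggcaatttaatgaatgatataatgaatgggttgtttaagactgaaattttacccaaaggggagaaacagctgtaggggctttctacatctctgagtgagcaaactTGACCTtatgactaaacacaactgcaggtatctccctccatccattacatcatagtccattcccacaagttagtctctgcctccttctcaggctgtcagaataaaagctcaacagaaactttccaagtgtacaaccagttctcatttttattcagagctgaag

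The letters of 5 motifs were searched on both strands in each window. The STAT5 element TTCNNNGAA stood in 8.3% of 32851 windows of the same length, the nuclear receptor element AGGTCA in 16.3%, the C/EBP element TTGCNNAA in 10.8%, the HNF6 element ATTGAT in 7.54% and the antioxidant response element core TGACNNNGC in 12.4%. The Sult3a1 window held a STAT5 match starting 109 bases before the start site and an HNF6 match starting 74 bases before it. The printed Sult2a8 window held a C/EBP match 217 bases before the start, and the Sult1e1 window held AGGTCA on the opposite strand, read as TGACCT, 113 bases before the start. No 2 of these matches overlapped. Sult2a8 has another RefSeq window, not printed, with 2 AGGTCA and 2 HNF6 matches. A match describes letters only, and binding was not measured. All 9 members had a window. In GRCm38.p6, Sult1b1, Sult1d1 and Sult1e1 are consecutive protein-coding genes on chromosome 5, Sult2a8 lies between Sult2a6 and Sult2a7 on chromosome 7, and Sult3a1 is next to Sult3a2 on chromosome 10.

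**Figure D1:**
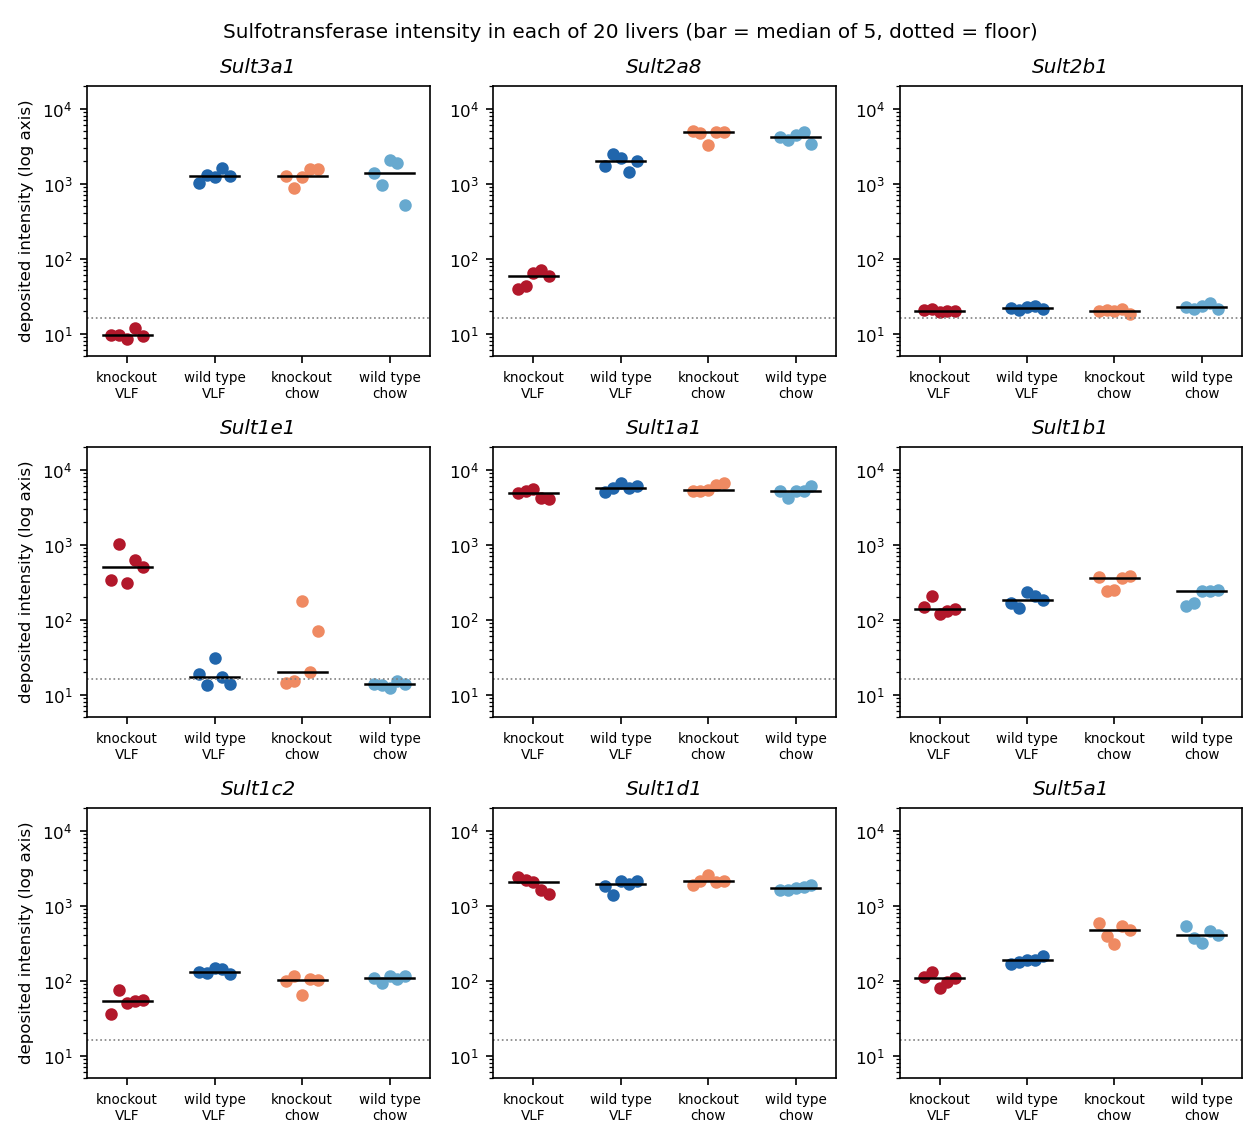
Deposited intensity (log axis) of the 9 sulfotransferases in each liver, with knockout VLF, wild-type VLF, knockout chow and wild-type chow from left to right, 5 points per group and a bar at the group median. The dotted line marks an intensity of 16, the floor applied after scaling. Sult3a1 lies at 8.41 to 12.1 in knockout VLF livers and at 516 or above in all others, and Sult1e1 lies at 309 to 1027 in knockout VLF livers and at 177 or below in all others.

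The amine, steroid and bile acid sulfotransferases Sult3a1 and Sult2a8 were far lower in the knockout on the VLF diet than in any other group. Sult3a1, which sulfates amines and is female-predominant in mouse liver, had deposited intensities of 9.59, 9.66, 8.41, 12.1 and 9.36 in knockout VLF livers, against 1005, 1292, 1208, 1639 and 1258 in wild-type VLF livers. On chow it had 1279, 867, 1214, 1561 and 1568 in knockout livers, against 1369, 973, 2085, 1908 and 516 in wild-type livers. All 5 knockout VLF livers lay below the floor of 16, while the other 3 groups overlapped one another. Wild-type VLF livers were thus at least 80.3-fold brighter than knockout VLF livers, and knockout chow livers at least 76.6-fold brighter than knockout VLF livers.

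Where Sult3a1 could be tested it did not pass. Its log2 difference was -0.06 ± 0.28 (estimate ± standard error) for knockout against wild type on chow, with an adjusted p of 1 by limma with Benjamini-Hochberg adjustment over all probe sets. It was 0.01 ± 0.28 for VLF against chow in wild type (limma adjusted p = 1). Wild-type chow livers spread 4.04-fold, with a log2 standard deviation of 0.83. The standard errors pool the spread of all 4 groups, and the knockout VLF livers, all at the floor, add none. The standard errors are therefore narrower than the wild-type chow spread alone would give.

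Sult2a8, a bile acid and steroid sulfotransferase of mouse liver, had 39.6, 43.7, 65.4, 70.4 and 57.9 in knockout VLF livers, against 1704, 2500, 2223, 1434 and 1972.5 in wild-type VLF livers. On chow it had 5037, 4769, 3282, 4888 and 4918 in knockout livers, against 4154, 3871, 4440, 4856 and 3356 in wild-type livers. The knockout VLF livers lay below every wild-type VLF liver, and those lay below every chow liver, so that the order was chow of either genotype, then wild type on VLF, then knockout on VLF. The knockout was 35.8-fold below wild type on the VLF diet (log2 -5.16 ± 0.19), and 82.8-fold lower on the VLF diet than on chow (-6.37 ± 0.19).

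In wild type, Sult2a8 fell 2.13-fold on the VLF diet (log2 -1.09 ± 0.19, limma adjusted p = 0.00627). An exact permutation test of the deposited log2 values, two-sided with 5 and 5 livers, gave p = 0.00794, the smallest that this design allows. This was 1 of 6 such tests, run for these 3 genes in the comparisons without knockout VLF arrays. The wild-type VLF arrays were part of the contrast on which Sult2a8 had been listed, so its diet tests are not independent of that choice. The limma call ended when arrays were centred on the hybridization controls (-1.09, adjusted p = 0.0554). Between knockout and wild type on chow the log2 difference was 0.12 ± 0.19 (limma adjusted p = 0.914). Over the 20 arrays, the 5 genes whose mean-centred log2 values were closest to Sult2a8 were Car3, Sult3a1, Mup10, Serpina6 and Cyp2c54, with root-mean-square differences of 0.61, 0.65, 0.83, 0.90 and 0.92. The 5 closest to Sult3a1 were Sult2a8, Car3, Mup10, Serpina6 and Dio1, at 0.65 to 1.02. These distances stand beside a standard deviation over arrays of 2.62 for Sult2a8 and 2.76 for Sult3a1.

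The third SULT2 or SULT3 member, Sult2b1, a hydroxysteroid and cholesterol sulfotransferase known from skin, was dim throughout. Its values of 18.6 to 25.6 lay below the array median on all 20 arrays, and limma called it in no comparison. It was called higher on the VLF diet in the knockout only after centring on the hybridization controls (0.37, limma adjusted p = 0.0209). Sult2a2, which was on the array but is not among the 9 members, was also lower in knockout than in wild-type VLF livers (log2 -3.17 ± 0.80, limma adjusted p = 0.00459). Its values were 274, 83.7, 94.8, 149 and 40.2 in knockout VLF livers, against 1771, 1096, 587, 2155 and 229 in wild-type VLF livers. The groups overlapped, the wild-type chow livers spread 19.2-fold, and the near-identical Sult2a genes of the cluster make the gene behind this signal uncertain.

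Sult1e1, the estrogen sulfotransferase, went the other way and was high in the knockout on the VLF diet. It had 336, 1027, 309, 627 and 502 in knockout VLF livers, against 19.01, 13.5, 30.6, 17.1 and 13.9 in wild-type VLF livers. On chow it had 14.3, 15.4, 177, 20.2 and 70.0 in knockout livers, against 14.0, 13.5, 12.1, 15.3 and 13.9 in wild-type livers. Every knockout VLF liver lay above every other liver, and among the knockout chow livers numbers 3 and 5 stood above all wild-type livers. On the normalized log2 scale, with the floor of 16, knockout VLF livers were higher than wild-type VLF livers by 4.62 ± 0.51 and higher than knockout chow livers by 3.72 ± 0.51. These sizes depend on the floor, since 2 of 5 livers lay at it in wild type on VLF, 2 of 5 in the knockout on chow and all 5 in wild type on chow, and a floor of 32 gave 3.87 and 3.19.

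On chow, Sult1e1 differed between knockout and wild type by log2 1.15 ± 0.51, which limma did not call after adjustment (unadjusted p = 0.0362, adjusted p = 0.196). This standard error pools all 4 groups, although log2 standard deviations were 1.47 in knockout chow livers and 0 in wild-type chow livers. The unadjusted p may therefore be too small. The exact two-sided permutation test of the unfloored deposited values gave a difference of 1.37 with p = 0.0159. Without 1 wild-type chow liver, whichever it was, the exact p was 0.111 to 0.167, and without knockout chow liver 3 the difference fell to 0.785 (exact p = 0.0159). In wild type the diet difference was 0.25 ± 0.51 (limma adjusted p = 1). Its 5 closest genes in pattern over the 20 arrays were Lgals3, S100a6, Chil3, Nucb2 and Ly6d, at root-mean-square differences of 0.68 to 0.85, beside a standard deviation of 2.10 for Sult1e1.

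Summed markers of macrophages and neutrophils were also higher in knockout than in wild-type VLF livers. All 8 macrophage and Kupffer cell markers rose in the knockout on the VLF diet by limma, with a summed scaled intensity of 15032 to 23331 in knockout VLF livers, 4285 to 5686 in wild-type VLF livers, 5824 to 9739 in knockout chow livers and 4778 to 6106 in wild-type chow livers. Knockout chow liver 3, the highest of its group for Sult1e1, had the highest macrophage sum of that group, 9739, and the highest neutrophil sum, 1535 against 374 to 520 in the other four. Knockout chow liver 5, with 70.0 for Sult1e1, had a macrophage sum of 6706, below the 7275 of liver 4, whose Sult1e1 was 20.2. Within the knockout VLF livers the highest macrophage sum, 23331 in liver 1, stood beside a Sult1e1 of 336, above that of liver 3 alone. Liver 2, the highest for Sult1e1 at 1027, had a macrophage sum of 16766. Liver 4, with a Sult1e1 of 627, had the lowest neutrophil sum of the group, 950. Neutrophil markers summed to 950 to 5201 in knockout VLF livers and 325 to 389 in wild-type VLF livers. Only 2 of 5, S100a8 and S100a9, were called higher, and the others were not called. The share called was 40% of neutrophil and 100% of macrophage and Kupffer cell markers, beside 47.4% of the genes measurable on at least 1 array. None of the markers in either list was at the floor in all livers of a group, and their part in the Sult1e1 result was not tested.

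**Figure D2:**
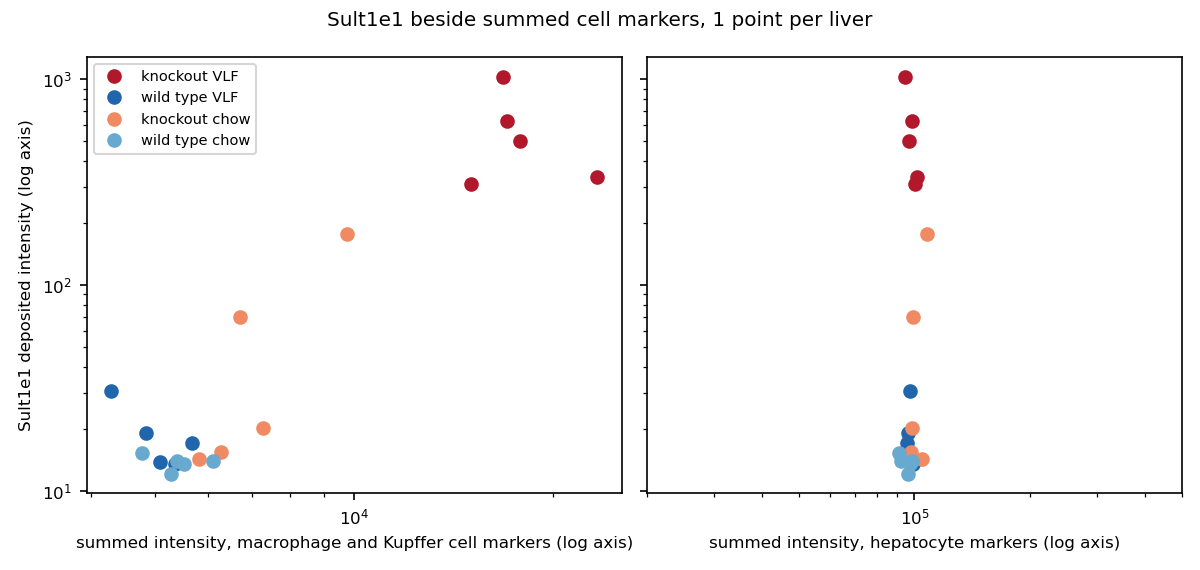
Sult1e1 deposited intensity (log axis) against the summed scaled intensity of 8 macrophage and Kupffer cell markers (left) and 8 hepatocyte markers (right, both log axes), 1 point per liver and 1 colour per group. Knockout VLF livers lie at 15032 or above on the macrophage axis and the wild-type livers at 6106 or below, while the groups overlap on the hepatocyte axis.

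Of the phenol and catecholamine sulfotransferases, Sult1c2 and Sult1b1 were lower in the knockout on the VLF diet than on chow. Sult1c2, a phenol sulfotransferase, had 36.0, 74.0, 50.2, 53.3 and 55.6 in knockout VLF livers, against 131, 126, 149, 144 and 123 in wild-type VLF livers. On chow it had 99.4, 115, 65.3, 106 and 101 in knockout livers, against 109, 94.6, 115, 105 and 115 in wild-type livers. All knockout VLF livers lay below all wild-type VLF livers. It fell 2.62-fold against wild type on the VLF diet (log2 -1.39 ± 0.15, limma adjusted p = 9.64e-07) and on the VLF diet against chow in the knockout (log2 -0.86 ± 0.15, limma adjusted p = 0.000263).

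The diet call for Sult1c2 in the knockout ended after centring on the hybridization controls (-0.50, limma adjusted p = 0.0615). In wild type its VLF livers lay above every chow liver, but the change of 0.30 ± 0.15 did not pass (limma adjusted p = 0.487). Between the genotypes on chow the difference was -0.24 ± 0.15 (limma adjusted p = 0.432).

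Sult1b1, which sulfates thyroid hormones and phenols, had 149, 204, 119, 132 and 137 in knockout VLF livers, against 168, 144, 233, 210 and 181 in wild-type VLF livers. On chow it had 375, 243, 246, 363 and 383 in knockout livers, against 152, 165, 241, 240 and 247 in wild-type livers. The genotypes overlapped on each diet, whereas all knockout VLF livers lay below all knockout chow livers. It fell 2.20-fold in knockout livers on the VLF diet (log2 -1.14 ± 0.21, limma adjusted p = 0.000273) and its difference between genotypes was -0.47 ± 0.21 on the VLF diet (limma adjusted p = 0.0913). That difference was called with the dim-probe filter and with array weights (limma adjusted p = 0.0403 and 0.0322). It was also called in a fit that left out 1 liver (limma adjusted p = 0.0230).

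On chow Sult1b1 differed by 0.45 ± 0.21 between knockout and wild type (limma unadjusted p = 0.0416, adjusted p = 0.210). With arrays scaled to a common median and no quantile step, that difference was 0.70 and was called (limma adjusted p = 0.0369). In wild type the diet difference was -0.21 ± 0.21 (limma adjusted p = 0.886).

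Sult1a1, a major phenol sulfotransferase of liver, differed little. It had 4820, 5252, 5468, 4241 and 4083 in knockout VLF livers, against 5081, 5707, 6709, 5619 and 6093 in wild-type VLF livers. On chow it ranged from 5178 to 6716 in knockout livers and from 4244 to 6052 in wild-type livers, and all groups overlapped. The knockout on the VLF diet was lower than wild type by 0.31 ± 0.10 on the log2 scale (limma adjusted p = 0.0288). That call ended under median scaling (-0.25, limma adjusted p = 0.0722) and centring on the hybridization controls (-0.06, adjusted p = 0.988). It also ended without knockout VLF liver 1, 4 or 5, or without wild-type VLF liver 3 or 5, with limma adjusted p up to 0.0842. Its other differences did not pass: 0.13 ± 0.10 between genotypes on chow (limma adjusted p = 0.554), -0.25 ± 0.10 for diet in the knockout (0.0874) and 0.19 ± 0.10 for diet in wild type (0.539). The diet difference in the knockout was called in 3 of 20 alternatives and changed sign in 1. With 1 liver left out, its limma adjusted p ranged from 0.0464 to 0.241.

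Sult1d1, a catecholamine sulfotransferase of mice, was called in no comparison. It had 2418, 2184, 2088, 1596 and 1411 in knockout VLF livers, against 1808, 1383, 2140, 1943 and 2099 in wild-type VLF livers. On chow it ranged from 1897 to 2552 in knockout livers and from 1616 to 1892 in wild-type livers, without overlap in the deposited values but with overlap after normalization. The log2 difference between the genotypes was 0.06 ± 0.13 on the VLF diet (limma adjusted p = 0.951) and 0.23 ± 0.13 on chow (limma adjusted p = 0.348). The dimmer Sult1d1 probe set gave -0.24 ± 0.15 and 0.36 ± 0.15 (limma adjusted p = 0.277 and 0.181), so the 2 probe sets differed in sign on the VLF diet.

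Sult5a1, a sulfotransferase family member, was lower on the VLF diet in both genotypes. It had 110, 130, 79.0, 95.5 and 109 in knockout VLF livers, against 168, 179, 187, 191 and 211 in wild-type VLF livers. On chow it had 584, 398, 312, 539 and 481 in knockout livers, against 530, 371, 321, 462 and 406 in wild-type livers. The chow groups overlapped, the wild-type VLF livers lay below both, and the knockout VLF livers lay below those. The fall on the VLF diet was 4.36-fold in the knockout (log2 -2.12 ± 0.19, limma adjusted p = 8.64e-08) and 2.32-fold in wild type (-1.21 ± 0.19, limma adjusted p = 0.00387).

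Against wild type, Sult5a1 was 1.94-fold lower in knockout VLF livers (log2 -0.96 ± 0.19, limma adjusted p = 0.000703). On chow the genotype difference was -0.05 ± 0.19 (limma adjusted p = 1).

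**Figure D3:**
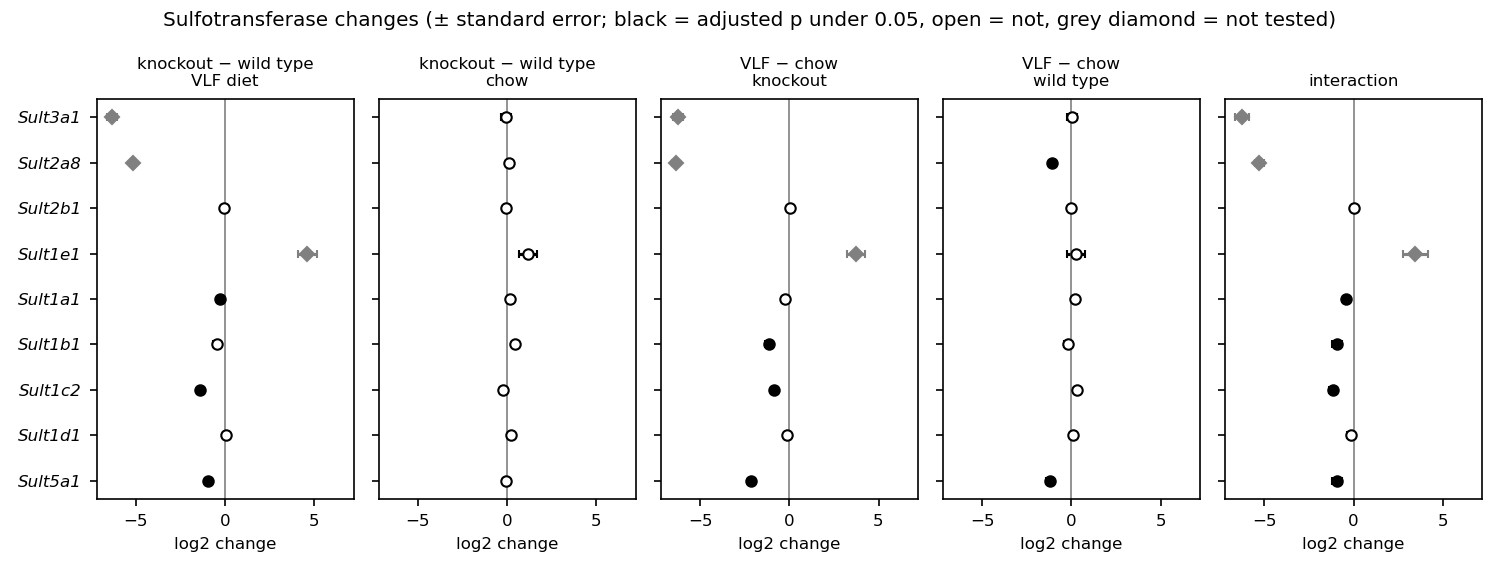
Log2 change ± standard error of the 9 sulfotransferases in 5 comparisons, 5 livers per group. Black points had a limma adjusted p under 0.05, open points did not, and grey diamonds mark Sult3a1, Sult2a8 and Sult1e1 where no test is given. The second panel, knockout minus wild type on chow, holds no black point, and the fourth, VLF minus chow in wild type, holds black points for Sult2a8 and Sult5a1.

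Counted together, 6 of 9 members were past a limma adjusted p of 0.05 between the genotypes on the VLF diet, 1 higher (Sult1e1) and 5 lower (Sult3a1, Sult2a8, Sult1a1, Sult1c2 and Sult5a1), where 42.1% of all genes were called in either direction, 19.2% higher and 23.0% lower. The groups did not overlap for 5 of 9 members, against 30.1% of all genes. Since 3 of these 6 had been chosen on this contrast, both counts are descriptions. Among the other members, Sult1a1, Sult1c2 and Sult5a1 were called, and Sult1b1, Sult1d1 and Sult2b1 were not. The median log2 difference was -0.47 over the members and -0.06 over the 16188 genes measurable on at least 1 array. Of these 16188 genes, 47.4% were called in this comparison. Among them the share was 3.30% between genotypes on chow and 27.2% for the interaction. For the diet it was 39.0% in the knockout and 1.76% in wild type. Under median scaling and under hybridization-control centring 5 of 9 were called, without Sult1a1. Hybridization-control centring moved the median of all genes in this comparison to 0.14 and turned the split of called genes to 5092 higher and 957 lower, against 3491 higher and 4177 lower in the analysis used here. Under median scaling that split was 4157 higher and 3109 lower.

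On chow, 0 of 9 members were called between knockout and wild type by limma, where 2.94% of all genes were, 1.23% higher and 1.70% lower. At an unadjusted p under 0.05 there were 2, Sult1e1 and Sult1b1, both higher in the knockout. None of the 9 had groups without overlap, against 6.13% of all genes. The median difference was 0.12 over the members and -0.02 over all genes. Under median scaling 1258 genes were called higher and 234 lower on chow, against 224 and 310 in the analysis used here, and Sult1b1 was then called. The chow calls over all genes were few under other alternatives, with 1 higher and 2 lower after hybridization-control centring and 6 higher and 4 lower with only the compared groups in the fit. They also depended on single livers, and the lowest counts were 20 higher and 12 lower without knockout chow liver 3 and 15 higher and 10 lower without wild-type chow liver 1.

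For the diet, 6 of 9 members were called in the knockout, 1 higher and 5 lower, where 34.7% of all genes were called, 17.1% higher and 17.7% lower. The knockout groups did not overlap for 5 of 9 members, against 25.3% of all genes. The 5 lower ones were Sult3a1, Sult2a8, Sult1b1, Sult1c2 and Sult5a1. Since Sult3a1, Sult2a8 and Sult1e1 had been chosen on the knockout VLF arrays, both knockout counts are descriptions. Among the other members, Sult1b1, Sult1c2 and Sult5a1 were called in the knockout, and Sult1a1, Sult1d1 and Sult2b1 were not. In wild type 2 of 9 were called, both lower (Sult2a8 and Sult5a1), where 1.57% of all genes were called, 0.786% higher and 0.781% lower. Sult2a8 had been chosen on a contrast that includes the wild-type VLF arrays, so this count is in part a description. The wild-type groups did not overlap for 3 of 9 members, Sult2a8 and Sult5a1 below and Sult1c2 above, against 4.27% of all genes. The median diet difference over the members was -0.86 in the knockout and 0.01 in wild type, beside -0.03 and -0.02 over all genes. The diet comparison in the knockout and the genotype comparison on the VLF diet share the knockout VLF livers.

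Whether the genotype difference depended on the diet was tested as an interaction, the knockout-minus-wild-type difference on the VLF diet less that on chow. It was called for 7 of 9 members, 1 with a positive and 6 with a negative sign, where 24.2% of all genes were called, 12.1% in each direction. This count is a description too, as it includes Sult3a1, Sult2a8 and Sult1e1. Among the 6 members with a test here, Sult1c2 had -1.15 ± 0.22 (limma adjusted p = 0.00074), Sult1b1 -0.93 ± 0.29 (limma adjusted p = 0.0327), Sult5a1 -0.91 ± 0.27 (limma adjusted p = 0.0250) and Sult1a1 -0.44 ± 0.15 (limma adjusted p = 0.0450). Sult1d1 had -0.17 ± 0.19 and Sult2b1 0.05 ± 0.07, with limma adjusted p of 0.756 and 0.930. The interaction estimates of Sult3a1, Sult2a8 and Sult1e1 were -6.27 ± 0.39, -5.28 ± 0.26 and 3.46 ± 0.72, given without a test, and the floor limits those of Sult3a1 and Sult1e1. After centring on the hybridization controls the count was 4, with Sult1a1, Sult1b1 and Sult5a1 no longer called (limma adjusted p = 0.907, 0.180 and 0.124). Without knockout chow liver 4 the count was also 4. Over all alternatives, the Sult1a1 call ended in 15 of 29, the Sult1b1 call in 12 of 29 and the Sult5a1 call in 5 of 29, and the Sult1c2 call held in all 28 that could be run.

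The supply of sulfate and of the donor PAPS was read from 18 genes of sulfate transport, PAPS synthesis and sulfur handling. In knockout against wild-type VLF livers 4 rose, 8 fell and 6 did not pass by limma, with a median of -0.32, where 19.2% of all genes were called higher and 23.0% lower. Papss1 and Papss2, the synthases that make PAPS, went in opposite directions, Papss1 by 0.38 ± 0.13 (limma adjusted p = 0.0272) and Papss2 by -1.32 ± 0.14 (limma adjusted p = 3.57e-07). Suox, the sulfite oxidase that yields sulfate, differed by -1.84 ± 0.16 on the log2 scale, and the sulfurtransferases Mpst and Tst by -1.17 ± 0.10 and -1.14 ± 0.07. The sulfate transporter Slc26a1 differed by -0.65 ± 0.11, the Golgi PAPS transporters Slc35b2 and Slc35b3 by -0.40 ± 0.06 and 0.84 ± 0.13, and the phosphatase Bpnt2, which clears the spent donor, by 0.68 ± 0.11.

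The direction of this list depended on scaling, since centring on the hybridization controls left 4 higher and 4 lower (Papss2, Suox, Tst and Mpst) with a median of 0.02. On chow 1 of the 18 was called between genotypes, Csad, an enzyme of taurine synthesis, at -2.61 ± 0.34 (limma adjusted p = 0.00248). In wild type, Csad differed by -2.75 ± 0.34 on the VLF diet (limma adjusted p = 0.000515) and Slc26a1 by -0.52 ± 0.11 (limma adjusted p = 0.0324), and the Slc26a1 call ended under both other scalings. In the knockout 3 of the 18 were higher and 11 lower on the VLF diet by limma.

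**Figure D4:**
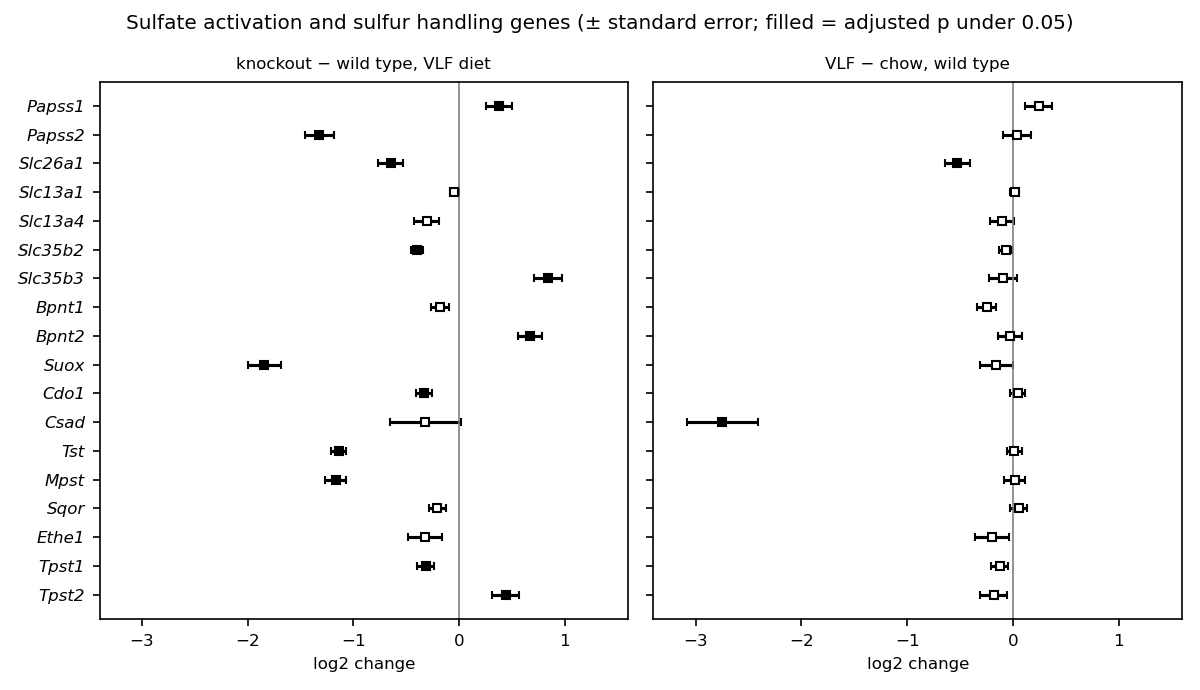
Log2 change ± standard error of 18 genes of sulfate activation and sulfur handling for knockout minus wild type on the VLF diet (left) and VLF minus chow in wild type (right). Filled squares had a limma adjusted p under 0.05. On the left 4 genes are filled above 0 and 8 below it, and on the right Csad and Slc26a1 are filled.

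Sulfatases, which remove sulfate groups, were read together with the sulfatase-modifying factor genes Sumf1 and Sumf2. Between the genotypes on the VLF diet, 41.7% of the measured genes of this list were called, beside 47.4% of all measurable genes. Whether these sulfatases act on products of the cytosolic sulfotransferases was not tested. Of 12 measured genes 3 rose in the knockout on the VLF diet, Arsa (1.40 ± 0.12), Galns (1.32 ± 0.12) and Sumf1 (0.50 ± 0.09), and 2 fell, Ids (-0.64 ± 0.08) and Sulf2 (-0.54 ± 0.11), by limma. Arsa, Galns and Ids encode lysosomal sulfatases and Sumf1 the enzyme that activates sulfatases. With hybridization-control centring 4 rose and none fell. On chow and for the diet in wild type limma called none of the 12.

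Transcription factors known to act on sulfotransferase genes were mostly lower. Of 21 measured, 13 fell and 1, Rora, rose (0.47 ± 0.12) in the knockout on the VLF diet by limma, with a median of -0.53, where 19.2% of all genes were called higher and 23.0% lower. With hybridization-control centring 8 fell and 3 rose. The log2 difference was -2.02 ± 0.13 for Cebpa, a hepatocyte factor, -1.55 ± 0.14 and -1.34 ± 0.13 for the xenobiotic and bile acid receptors Nr1i3 and Nr1h4, and -1.52 ± 0.17 for the fatty acid receptor Ppara. It was -1.51 ± 0.16 for the estrogen receptor Esr1 and -0.57 ± 0.09 for Stat5b, which relays growth hormone. None of the 21 was called between genotypes on chow or for the diet in wild type by limma.

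Other conjugating enzymes were lower in most cases as well. Of 10 measured, 7 fell and 1 rose in the knockout on the VLF diet by limma, against the same 23.0% and 19.2% of all genes, and 4 fell and 2 rose with hybridization-control centring. The log2 difference was -3.50 ± 0.21 for Inmt, an N-methyltransferase, and -1.29 ± 0.10 for Glyat, which conjugates glycine. Tpmt, a thiopurine methyltransferase, rose by 0.84 ± 0.12 at its brightest probe set, but its 3 other probe sets were called lower (-0.64 to -0.27), so its direction is uncertain.

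Sult3a1 is among the genes that are higher in female mouse liver, and other genes of that kind were low in the same group. Between the genotypes on the VLF diet, 19.2% of all genes were called higher in the knockout and 23.0% lower. Of 7 measured female-biased liver genes 6 fell in the knockout on the VLF diet by limma, among them Hao2 (-4.16 ± 0.65), Cyp2b9 (-3.45 ± 0.10) and the female-predominant factor Cux2 (-3.02 ± 0.25), while Prom1 rose (1.43 ± 0.44). Their summed scaled intensity was 1231 to 1593 in knockout VLF livers, 5910 to 7283 in wild-type VLF livers, 4751 to 6494 in knockout chow livers and 3961 to 5874 in wild-type chow livers. Of 9 male-biased genes 4 rose and 4 fell, with a median log2 difference of -0.48. Their summed scaled intensity was nevertheless higher, at 20934 to 24039 in knockout VLF livers, 7850 to 10007 in wild-type VLF livers, 12424 to 15143 in knockout chow livers and 10501 to 14859 in wild-type chow livers. No source used here gives the sex of the mice, and the part of sex or growth hormone in the Sult3a1 result was not tested.

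Markers of other cell types were also read in the knockout on the VLF diet against wild type, where 19.2% of all genes were called higher and 23.0% lower. By limma, 3 of 9 squamous epithelium markers rose, with sums of 1723 to 4575 in knockout VLF livers and 286 to 371 in wild-type VLF livers. Of 7 stellate cell markers 4 rose and 1 fell, of 5 cholangiocyte markers 2 rose, of 6 endothelial markers 1 rose and 3 fell, of 6 lymphocyte markers 2 fell, and of 6 intestinal markers Fabp2 fell. Of 8 hepatocyte markers Apob, Asgr1 and Hnf4a fell. Several of these directions depended on scaling. With hybridization-control centring 4 squamous markers rose, 5 stellate markers rose and none fell, 1 endothelial marker rose and none fell, no lymphocyte marker was called, and of the hepatocyte markers Alb and Tat rose and Asgr1 fell. In the analysis used here, 47.4% of measurable genes were called in either direction. The share was below that for squamous (33.3%), lymphocyte (33.3%), hepatocyte (37.5%), cholangiocyte (40%) and intestinal (16.7%) markers. It was above that for stellate cell (71.4%) and endothelial (66.7%) markers. The part of these cells in the sulfotransferase results was not tested.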

How the data were processed

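The deposited table held intensity values for 45101 probe sets on 20 arrays, 1 per liver, as the authors deposited them; the linear intensity scale was judged from the numbers. The submitters' processing notes name both MAS5 and RMA, and no source used here says which one made the values. Per the labels, RNA came from flash-frozen liver.

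Each array was scaled to the same median, values under 16 were set to 16, and log2 values were quantile-normalized. The 64 control probe sets were dropped, and 45037 were fitted with 1 mean per group by limma 3.58.1 in R 4.3.3, with Benjamini-Hochberg adjustment over all of them. A call is an adjusted p under 0.05. The fit was tested on simulated data. Probe sets naming a single gene gave 18193 genes. The number of arrays limits the precision. Figures used Python 3.11.15 and matplotlib 3.10.9.

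Members, gene lists, motifs and marker lists were chosen with earlier results of these data known. Named were all 9 members, called genes of the lists, and the 5 genes closest in pattern to Sult1e1, Sult2a8 and Sult3a1. Alternatives changed scaling, floor, dim-probe filter, probe set choice, arrays in the fit, a replicate block and array weights, and left out each liver. The exact permutation tests were added after the data were seen.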

Additional observations from a re-analysis of the deposited data

Results flagged for a closer look

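In 3 of 32 sets of 5 livers for a member and group, 1 liver lay apart from the rest by more than 0.71 of the range of its group in normalized log2 values, where chance puts about 1 in 20 such sets. Sult2a8 in knockout chow liver 3 had an intensity of 3282, below the others of its group at 4769 to 5037. Sult1c2 in knockout chow liver 3 had 65.3, below 99.4 to 115 in the others, and Sult1c2 in wild-type chow liver 2 had 94.6, below 105 to 115 in the others. Knockout chow liver 3 was also the liver of its group with the highest Sult1e1 (177) and the highest macrophage marker sum (9739).

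The genotype difference on the VLF diet and that on chow were set against each other for 7 members whose interaction was past the limma threshold. The interaction on the log2 scale was -6.27 for Sult3a1, -5.28 for Sult2a8 and 3.46 for Sult1e1, which are given without a test. It was -1.15 for Sult1c2 (limma adjusted p = 0.00074), -0.93 for Sult1b1 (0.0327), -0.91 for Sult5a1 (0.0250) and -0.44 for Sult1a1 (0.0450). The Sult1a1 and Sult1b1 calls ended in 15 and 12 of 29 alternatives.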

How the results depend on the processing

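Over all members and comparisons, 887 recomputed changes kept direction and side of the threshold, 41 lost a call, 9 gained one and 30 changed sign, and none of those 30 was called in the analysis used here or under the alternative. Counts of called members that moved by over 1.5 times were 1 for knockout against wild type on chow under median scaling without quantile normalization (Sult1b1), 1 for the diet in wild type and 4 for the interaction under hybridization-control centring, and 4 to 7 for the interaction when 1 liver was left out (4 without knockout chow liver 4). For knockout against wild type on the VLF diet the count of 6 became 5 under both rescalings and the dim-probe filter and 7 with array weights. Leaving out 1 liver gave 5 to 7 for knockout against wild type on the VLF diet, 0 on chow, 6 to 7 for the diet in the knockout and 2 in wild type. Signs changed with hybridization-control centring for Sult2b1 (0.12) between genotypes on the VLF diet, Sult5a1 (0.00432) on chow, Sult1a1 (0.0924) and Sult1d1 (0.19) for the diet in the knockout, and Sult1d1 (0.0854) in the interaction. They changed with array weights for Sult1d1 (-0.0311) between genotypes on the VLF diet, Sult5a1 (0.16) on chow and Sult3a1 (-0.17) for the diet in wild type. Median scaling gave 0.12 for Sult3a1 and 0.20 for Sult5a1 on chow, the mean of all probe sets gave -0.0890 for Sult1d1 on the VLF diet, and the deposited log2 values used in the exact test, a setting chosen after seeing the data, gave 0.0539 for Sult3a1 on chow. Without 1 liver, the range spanned 0 for Sult1d1 between genotypes on the VLF diet (-0.0405 to 0.18), Sult3a1 (-0.38 to 0.12) and Sult5a1 (-0.15 to 0.14) on chow, Sult1d1 for the diet in the knockout (-0.18 to 0.0103), and Sult3a1 (-0.31 to 0.19) and Sult2b1 (-0.0402 to 0.0268) for the diet in wild type. The cause was not tested. Under hybridization-control centring the all-gene median was 0.30 for the diet in the knockout and 0.33 for the interaction, with 6798 genes higher and 871 lower and 3965 higher and 618 lower. With a replicate block 5 members were called in the interaction, without Sult1a1 (limma adjusted p = 0.0633) and Sult1b1 (0.0590), and the counts 6, 0, 6 and 2 of the other comparisons stood. The replicate numbers share a number only: of 30 same-numbered pairs 6 had a correlation of deviations over 0.1, with a range of -0.25 to 0.27. A floor of 32 left no value for Sult2b1, and the dim-probe filter left Sult1e1, Sult1c2 and Sult2b1 untested. Signal near background limits Sult2b1, Sult1e1 outside the knockout VLF livers and Sult3a1 within them.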
